A study of Homo sapiens with 6 samples.

Results

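The WNT genes described here are the 57 rows of the expression table whose symbol names a WNT ligand, a Frizzled receptor, a co-receptor (LRP5 and LRP6), a ROR receptor, a secreted antagonist (DKK, SFRP and WIF1), an LGR receptor, a receptor ligase (RNF43 and ZNRF3), CTNNB1 with APC, AXIN and NKD, or a TCF/LEF factor, out of 58024 rows in all. They were compared between the parental form of C4-2B (3 libraries) and C4-2B cells made resistant to enzalutamide (3 libraries). C4-2B is a human prostate cancer line of the LNCaP lineage that was obtained through growth in castrated nude mice, and enzalutamide is an antiandrogen drug. To select the resistant cells, the drug was raised from 1 to 20 µM over 6 months or longer, and 5 µM was kept in the medium from then on, while the parental cells were passaged with the vehicle, dimethyl sulfoxide. Both kinds of cells were grown in RPMI medium with fetal bovine serum. The surviving cells were pooled, so that the resistant cells stand for a single selection. RNA was taken after exposure to 10 µM enzalutamide, and the wording of the sources leaves it unclear whether the parental cells were exposed as well. Nothing in the sources says that the 3 libraries of a group came from separate cultures, and p values then measure only the spread between these libraries. Levels are given in FPKM, which counts fragments relative to transcript length and to the size of the library, so that genes of different length can be compared.

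The depth of the libraries was not given and was estimated from the values at 1.34e+07 to 2.03e+07 reads, with fragments assumed to be 200 bases long. Across genes, Pearson's r between 2 libraries lay at 0.911 to 0.929 within a group and at 0.782 to 0.802 between the groups. The 10 luminal prostate markers used to check the lineage were all above 1 FPKM in every library, with KLK3 at 2489, 2321 and 2857 FPKM in parental cells, against 46.8, 43.5 and 41.8 FPKM in resistant cells. Summed over 8 fibroblast markers, the level ranged from 8.10 to 12.0 FPKM in the parental and from 8.41 to 15.0 FPKM in the resistant libraries. Of these, DCN had values of 0 in parental cells and was at 3.63, 3.78 and 4.35 FPKM in the resistant libraries. LUM was at 0.0604 ± 0.0523 and 0.969 ± 0.313 FPKM and PDGFRB at 2.10 ± 1.25 and 0.164 ± 0.114 FPKM in parental and resistant cells (SD, n = 3 each), so that DCN and LUM were called higher and PDGFRB lower. COL1A1, at 6.71 ± 1.90 and 4.39 ± 2.14 FPKM, was not called, and COL1A2 did not exceed 0.132 FPKM in any library. Their part in the results was not tested. The 6 leukocyte markers summed to between 0.152 and 0.425 FPKM in the parental and between 0.257 and 2.70 FPKM in the resistant libraries, with CD3E at 0 in every library and PTPRC at 0 in all but 1. For 8 neuroendocrine markers the sums were 7.13 to 11.3 and 190 to 212 FPKM. The 5 endothelial markers summed to at most 1.24 FPKM and the 3 basal markers to at most 0.927 FPKM in any library.

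WNT proteins are secreted ligands that bind a Frizzled receptor together with LRP5 or LRP6. Binding blocks the complex of APC, AXIN and kinases that marks beta-catenin (CTNNB1) for destruction, and beta-catenin then enters the nucleus and turns on target genes through TCF and LEF factors. R-spondins, acting through LGR receptors, protect Frizzled receptors from the ligases RNF43 and ZNRF3, and secreted proteins of the DKK, SFRP and WIF families hold the pathway down from outside the cell. Several of these genes are themselves targets of beta-catenin and act in feedback. In the prostate, WNT signals take part in the growth of the epithelial buds and have been studied in resistance to antiandrogen drugs.

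The genes of the pathway did not move together in the resistant cells. DKK1 and LGR5 rose from 0 or near 0 to means of 26.2 and 79.1 FPKM, FZD8 and RNF43 rose 7.98-fold and 3.62-fold, and FZD4, ROR1, LGR4, WNT7B and NKD1 fell. Of the core of the pathway, CTNNB1, APC and AXIN1 stayed within 0.22 of the parental level on the log2 scale. Other core genes differed, with LRP5 called lower (−0.61) and LEF1 called higher (0.93), while LRP6, AXIN2 and TCF7L2 were not called. Under other scalings CTNNB1 reached up to 0.34 and passed the threshold. Of the 57 members, 42 averaged 0.1 FPKM or more across all 6 libraries and were tested, 12 of them were higher and 8 lower in the resistant cells, and 22 did not pass the threshold. Among all 24468 genes tested, 44.4% passed the threshold, with 22.1% higher and 22.3% lower, so that the 47.6% of the tested members lie near the background. The values of the groups did not overlap in 26 of the tested members, or 61.9%, against 54.8% of all genes tested. A difference of at least 2-fold with a call was found in 15 of the 42 tested members and in 6979 of the 24468 genes tested, or 28.5%. Of these, 10 of the 15 members and 5622 of the 6979 genes were at 1 FPKM or more in a group. The median log2 difference of the tested members was 0.11, beside −0.05 over all genes. In 10 of the tested members the lower group had a mean under 0.1 FPKM. They passed the filter only through the higher group, so that their means had to differ. Of these 10, 8 were called, beside 2098 of the 4730 such genes among all genes tested. These libraries are bulk RNA, in which fewer cells that express a gene and less RNA per cell cannot be told apart.

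**Figure D1:**
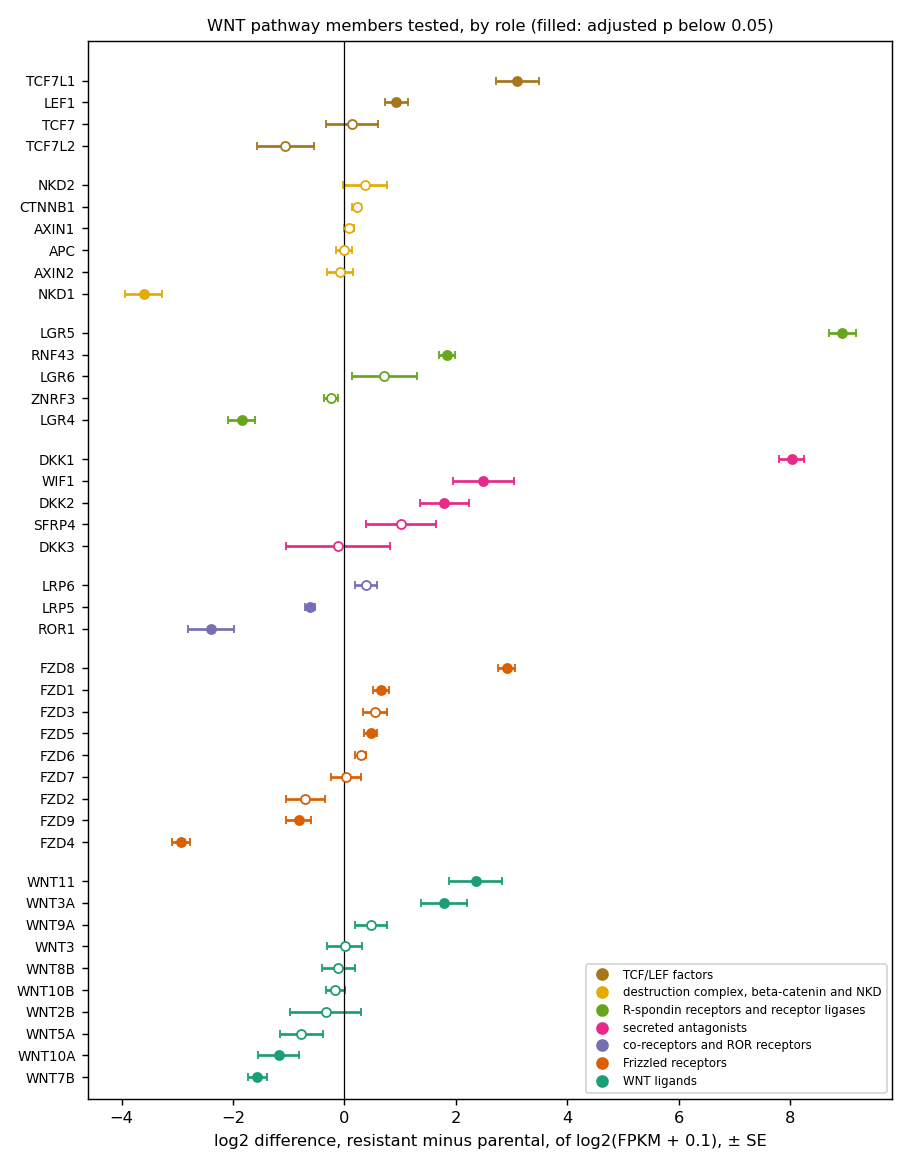
Difference between resistant and parental cells on the log2(FPKM + 0.1) scale for the 42 members tested, grouped by role, with standard errors and filled points for an adjusted p below 0.05. LGR5 at 8.94 and DKK1 at 8.03 lie far to the right, NKD1 at −3.60 and FZD4 at −2.93 to the left, and CTNNB1, APC and AXIN1 close to 0.

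**Figure D2:**
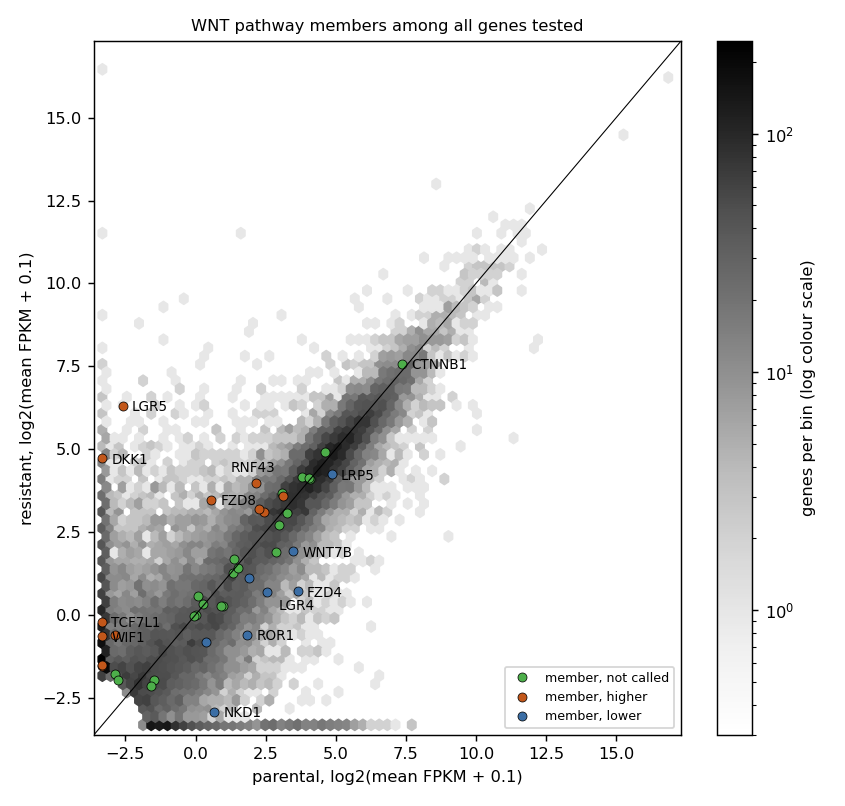
Mean level in resistant against parental cells, each as log2(mean FPKM + 0.1), for all 24468 genes tested (grey bins, log colour scale) and the members (coloured points), with the line of equality. DKK1 sits at the left edge, where parental values are listed at 0, and most other members lie within the cloud around the line.

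Among the secreted antagonists, DKK1 stood out. DKK1 binds LRP5 and LRP6 and keeps WNT ligands from using them. It lies on chromosome 10 (GRCh38, 52314281 to 52318042, plus strand) and was listed at 0 in all 3 parental libraries and at 24.4, 29.9 and 24.2 FPKM in the resistant libraries, a mean of 26.2 ± 3.23 FPKM (SD, n = 3). At the estimated depths, and on its longest annotated transcript of 1805 bases, this equals about 560 to 785 reads per library. The difference was past the threshold with an adjusted p of 4.77e-06 (limma with Benjamini-Hochberg adjustment). No fold change is given against values of 0. No other gene shares its locus in the table, and a 0 in this table is not always a measured absence: RPPH1, the RNA of a ribonuclease that every cell uses, was also listed at 0 in all parental libraries. The other antagonists were low throughout. WIF1, which binds WNT ligands directly, was at 0 in the parental libraries and at 0.328, 0.999 and 0.281 FPKM in the resistant libraries (limma adjusted p = 0.0109). DKK2 was at 0 in the parental libraries and at 0.340, 0.244 and 0.174 FPKM in the resistant ones (limma adjusted p = 0.0171). Both pass the test on a few reads per library, about 7.19 to 29.1 for WIF1 and 8.64 to 20.4 for DKK2. DKK3 and SFRP4 overlapped between the groups and were not called. SFRP1, a decoy that resembles the ligand-binding part of Frizzled, was at 0.102, 0.0769 and 0.212 FPKM in parental cells and at 0.0171, 0 and 0 FPKM in the resistant libraries, too low on average to be tested. SFRP2 stayed at or below 0.0425 FPKM, and DKK4 and SFRP5 were listed at 0 in every library. The antagonists together summed to 0.424 ± 0.372 FPKM in parental and to 27.3 ± 3.53 FPKM in resistant cells (SD, n = 3 each), nearly all of it DKK1.

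The receptors for R-spondins changed places. LGR5, a receptor known as a marker of intestinal stem cells and a target of beta-catenin, lies on chromosome 12 (71439798 to 71586310, plus strand). It was at 0.0427, 0.124 and 0.0320 FPKM in parental cells and at 73.4, 81.9 and 82.0 FPKM in the resistant libraries. The parental values equal about 1.88 to 10.8 reads, and the 2 groups lie far apart. The log2 difference was 8.94 with a standard error of 0.24 (limma, adjusted p = 4.60e-06), and ranged from 6.23 with a pseudocount of 1 FPKM to 10.21 with 0.01 FPKM. LGR4, the related receptor on chromosome 11 (27365961 to 27472790, minus strand), was at 4.93, 4.81 and 7.63 FPKM in the parental and at 1.52, 1.35 and 1.65 FPKM in the resistant libraries. Every resistant value was below every parental value, and the log2 difference was −1.84 (standard error 0.24, limma adjusted p = 0.00128). LGR6 did not exceed 0.258 FPKM and was not called. LGR4 made up 98.0% ± 0.457 of the summed FPKM of the 3 receptors in parental cells and 1.87% ± 0.223 in resistant cells, and LGR5 rose from 1.26% ± 1.10 to 97.9% ± 0.171 (SD, n = 3 each). The summed level was 5.90 ± 1.61 FPKM in parental and 80.8 ± 4.92 FPKM in resistant cells.

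Near LGR5, on the opposite strand, lies TSPAN8, which encodes a tetraspanin and was chosen after its values were seen. In the GENCODE annotation its span shares 2101 bases with that of LGR5, and the table puts both genes in a single locus. TSPAN8 was at 0.344, 0.442 and 0.357 FPKM in parental cells and at 339, 328 and 335 FPKM in the resistant libraries. Both neighbours were thus near 0 in the parental and high in the resistant libraries. Whether the authors' estimates used the strand of the reads is not given in the sources used here, and the part of TSPAN8 reads in the LGR5 values was not tested.

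The ligases that remove Frizzled receptors from the cell surface differed from each other. RNF43 on chromosome 17 (58353676 to 58417595, minus strand) was at 4.23, 3.76 and 5.03 FPKM in the parental and at 15.1, 15.7 and 16.3 FPKM in the resistant libraries, without overlap. Its log2 difference was 1.84 (standard error 0.14, limma adjusted p = 1.59e-04). ZNRF3, which does the same work, had 7.68 ± 0.483 and 6.48 ± 0.470 FPKM (SD, n = 3 each) and was not past the threshold (limma adjusted p = 0.170).

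**Figure D3:**
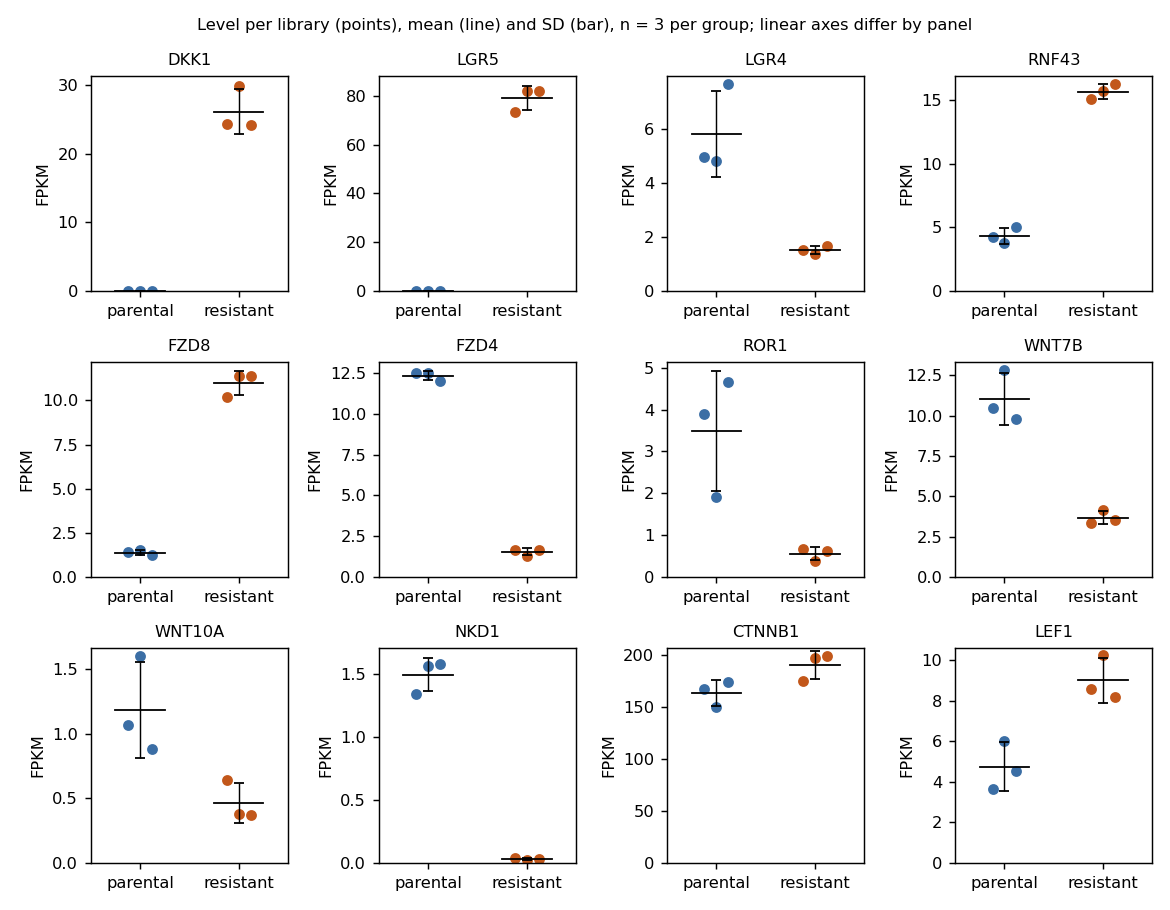
FPKM per library (points, linear axes that differ by panel), group means (lines) and SD (bars) for 12 members in 3 parental and 3 resistant libraries. DKK1, LGR5, RNF43, FZD8 and LEF1 are higher in every resistant library, LGR4, FZD4, ROR1, WNT7B, WNT10A and NKD1 are lower in every resistant library, and CTNNB1 shifts little.

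Of the Frizzled receptors, the seven-pass proteins that take up the WNT signal, 9 of 10 were tested, with 3 higher and 2 lower in the resistant cells, or 55.6% of those tested against 44.4% of all genes. FZD4, which also serves as a receptor for the ligand norrin, lies on chromosome 11 (86945679 to 86955395, minus strand) and was at 12.5, 12.5 and 12.0 FPKM in the parental libraries. In the resistant libraries it was at 1.64, 1.29 and 1.68 FPKM, 8.03-fold lower. FZD8 on chromosome 10 (35638247 to 35642296, minus strand) went the other way, from 1.39, 1.50 and 1.24 FPKM to 10.2, 11.4 and 11.4 FPKM. The log2 differences were −2.93 for FZD4 and 2.91 for FZD8, each with a standard error of 0.16 (limma adjusted p = 4.56e-05 and 4.36e-05), and neither gene overlapped between the groups. FZD4 overlaps PRSS23, a gene of a serine protease on the opposite strand, over 7232 bases of their annotated spans, and PRSS23, chosen after its values were seen, moved in the other direction, from 0.909 ± 0.371 to 14.5 ± 1.99 FPKM (SD, n = 3 each).

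Smaller differences were found in other Frizzled genes. FZD1 rose from 5.30 ± 0.364 to 8.46 ± 0.893 FPKM (SD, n = 3 each, limma adjusted p = 0.00952), and FZD5 from 8.64 ± 0.658 to 12.0 ± 0.656 FPKM (limma adjusted p = 0.0165). FZD9 was at 3.69 ± 0.620 and 2.04 ± 0.351 FPKM (limma adjusted p = 0.0255), a call that was lost without parental replicate 0 or 1 or resistant replicate 0 or 2, with adjusted p values from 0.0760 to 0.0843. FZD6, the Frizzled gene with the highest level in both groups, had 24.2 ± 1.19 and 29.7 ± 2.75 FPKM and missed the threshold (limma adjusted p = 0.0518), but passed it as higher under each of the 3 other scalings tried and without resistant replicate 0 (adjusted p = 0.0180). FZD3 was higher in each resistant library without a call (limma adjusted p = 0.0819), with resistant replicate 0 at 16.7 FPKM above the other libraries and an adjusted p of 0.0349 without resistant replicate 1, and FZD2 and FZD7 overlapped between the groups. FZD10 was listed at 0 in all libraries. In parental cells the order by mean level was FZD6, FZD4, FZD5 and FZD3 and then FZD1 and FZD9, where FZD5 at 8.64 ± 0.658 and FZD3 at 8.37 ± 0.239 FPKM did not differ beyond their spread. In resistant cells FZD6 was followed by FZD3, FZD5 and FZD8, at 12.6 ± 3.73, 12.0 ± 0.656 and 11.0 ± 0.674 FPKM, whose order is not settled by their spread. The summed level of all Frizzled genes went from 66.8 ± 1.08 to 79.6 ± 1.85 FPKM. Within that sum FZD4 went from 18.5% ± 0.144 to 1.93% ± 0.245 and FZD8 from 2.06% ± 0.165 to 13.8% ± 0.737, while FZD6 held 36.2% ± 2.39 and 37.3% ± 2.94 (SD, n = 3 each).

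**Figure D4:**
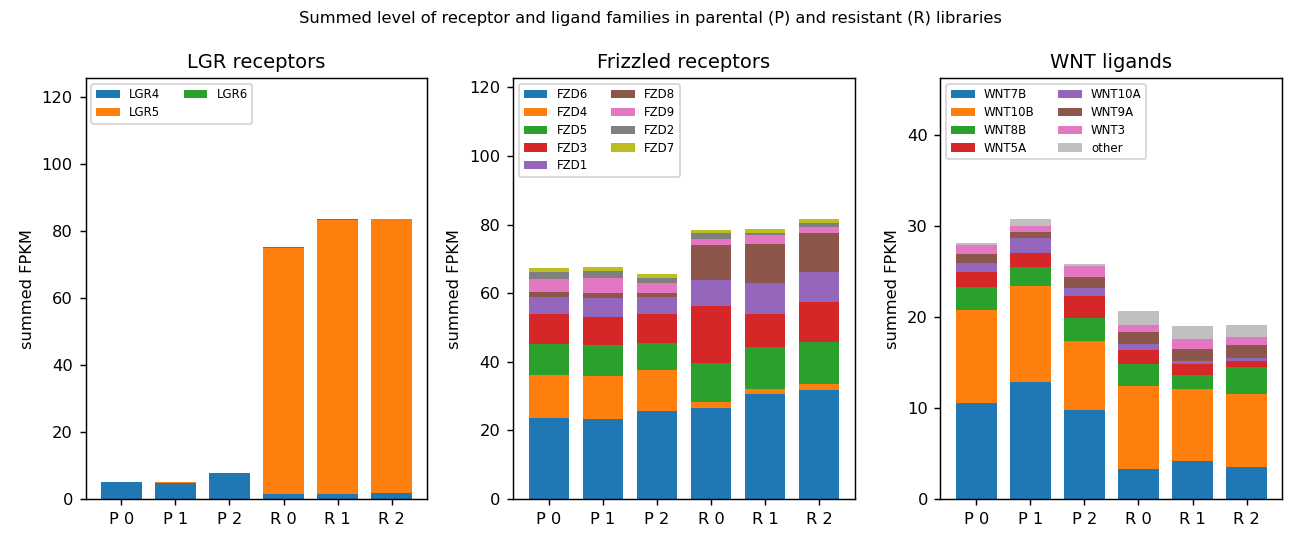
Summed FPKM of the LGR receptors, the Frizzled receptors and the WNT ligands in each parental (P) and resistant (R) library, stacked by gene on axes that start at 0. The LGR column changes from LGR4 to LGR5, FZD4 shrinks while FZD8 grows, and the ligand sum falls with WNT7B.

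Of the co-receptors, LRP5 was at 27.3, 31.6 and 27.4 FPKM in the parental and at 19.1, 18.9 and 18.1 FPKM in the resistant libraries. It was lower in every resistant library, with a log2 difference of −0.61 (standard error 0.09, limma adjusted p = 0.00248). LRP6 was at 13.0, 17.0 and 11.0 FPKM and at 20.5, 18.5 and 14.4 FPKM, so that the groups overlapped and no call was made (limma adjusted p = 0.171). ROR1 on chromosome 1 (63774017 to 64181498, plus strand), a receptor for WNT5A outside the beta-catenin branch, was at 3.90, 1.91 and 4.67 FPKM in the parental and at 0.674, 0.375 and 0.621 FPKM in the resistant libraries. All parental values lay above the resistant values, with a log2 difference of −2.39 (standard error 0.41, limma adjusted p = 0.00415). ROR2 stayed at or below 0.163 FPKM and was not tested.

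WNT7B and WNT10B carried most of the ligand level in parental cells. Of the 19 ligands, 10 were tested, with 2 higher and 2 lower, or 40.0% of those tested against 44.4% of all genes, and 6 reached a mean of 1 FPKM in a group. WNT7B on chromosome 22 (45920366 to 45977162, minus strand), a ligand that can act through beta-catenin, was at 10.5, 12.9 and 9.77 FPKM in the parental and at 3.32, 4.12 and 3.56 FPKM in the resistant libraries. It was 3.01-fold lower without overlap, with a log2 difference of −1.56 (standard error 0.16, limma adjusted p = 5.35e-04). WNT10B was at 10.3, 10.5 and 7.56 FPKM and at 9.11, 8.01 and 7.96 FPKM, which overlap, and was not called (limma adjusted p = 0.452). WNT10A was at 1.07, 1.60 and 0.884 FPKM and at 0.643, 0.375 and 0.372 FPKM, with a log2 difference of −1.18 (standard error 0.37, limma adjusted p = 0.0418), and this call was lost in 10 of the 15 alternatives in which the gene was tested, among them leaving out any of the parental libraries or resistant replicate 1 or 2, where the adjusted p lay between 0.0554 and 0.113. WNT5A, the ligand of ROR1, had 1.87 ± 0.439 and 1.10 ± 0.467 FPKM (SD, n = 3 each) and was not called (limma adjusted p = 0.155).

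WNT11 and WNT3A were called higher at levels below 1 FPKM. WNT11, which acts mostly outside the beta-catenin branch, was at 0, 0.106 and 0 FPKM in the parental and at 0.622, 0.630 and 0.425 FPKM in the resistant libraries (limma adjusted p = 0.00822). WNT3A, a classical activator of beta-catenin, was at 0 in the parental and at 0.241, 0.269 and 0.227 FPKM in the resistant libraries (limma adjusted p = 0.0134), which equals about 9.16 to 12.3 reads. WNT8B, WNT9A, WNT3 and WNT2B were tested without a call. The other 9 ligands had a mean under 0.1 FPKM and were not tested: WNT1, WNT2, WNT5B, WNT6 and WNT16 were at 0 in all parental libraries, WNT9B was at 0 in all resistant libraries, WNT4 and WNT7A were above 0 in some library of each group, and WNT8A was at 0 in every library. The ligand sum was 28.2, 30.8 and 25.9 FPKM in parental and 20.6, 19.1 and 19.1 FPKM in resistant cells, and the share of WNT7B in the sum fell from 38.9% ± 2.44 to 18.8% ± 2.79 (SD, n = 3 each).

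In the cell interior, CTNNB1 on chromosome 3 (41194741 to 41260096, plus strand) was at 167, 150 and 174 FPKM in the parental and at 174, 197 and 199 FPKM in the resistant libraries. The lowest resistant value and the highest parental value nearly touched, and the log2 difference of 0.22 (standard error 0.09) missed the threshold (limma adjusted p = 0.0890). Under the 3 other scalings it was 0.27 to 0.34 and passed. APC, the scaffold of the destruction complex, was at 17.0, 15.0 and 18.8 FPKM and at 15.3, 19.6 and 15.8 FPKM, with a log2 difference of 0.00 (standard error 0.14). AXIN1 was at 16.9, 14.9 and 17.0 FPKM and at 16.8, 17.4 and 17.5 FPKM, with a log2 difference of 0.09 (standard error 0.09). AXIN2, which beta-catenin itself induces in most cells, was at 2.14, 2.73 and 3.31 FPKM and at 2.37, 2.91 and 2.35 FPKM, with a log2 difference of −0.08 (standard error 0.23). The groups overlapped in these 3 genes, and no call was made. NKD1, an inhibitor of dishevelled and a further feedback target, lies on chromosome 16 (50548396 to 50649249, plus strand) and was at 1.35, 1.57 and 1.58 FPKM in the parental and at 0.0393, 0.0257 and 0.0285 FPKM in the resistant libraries. Its log2 difference was −3.60 (standard error 0.34, limma adjusted p = 3.38e-04), and ranged from −1.27 with a pseudocount of 1 FPKM to −5.20 with 0.01 FPKM. NKD2 overlapped between the groups at 2.52 ± 1.28 and 3.13 ± 1.02 FPKM (SD, n = 3 each).

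Of the TCF/LEF factors, LEF1 and TCF7L1 were called higher. LEF1, which tends to activate target genes, was at 3.66, 6.04 and 4.53 FPKM in the parental and at 8.57, 10.3 and 8.20 FPKM in the resistant libraries, without overlap. Its log2 difference was 0.93 (standard error 0.21, limma adjusted p = 0.0128), and the adjusted p was 0.0502 without parental replicate 2 and 0.0552 without resistant replicate 1. TCF7L1, which tends to repress, was at 0 in the parental and at 0.779, 0.886 and 0.627 FPKM in the resistant libraries (limma adjusted p = 0.00105). TCF7L2, the main TCF factor of the intestine, was at 6.62, 4.29 and 10.8 FPKM and at 3.29, 1.68 and 5.82 FPKM, with groups that overlap and no call (limma adjusted p = 0.145). TCF7 was near 1 FPKM in both groups. LEF1 made up 37.8% ± 12.2 of the summed level of the 4 factors in parental and 63.8% ± 11.4 in resistant cells (SD, n = 3 each). Values per gene do not separate the isoforms of these factors that lack the part that binds beta-catenin.

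The sequence ahead of the transcription start was looked up for the members in RefSeq (GRCh38.p14), where 40 of the 57 matched. The 250 bases before the start are shown 5′ to 3′ for 2 genes that rose and 2 that fell strongly, DKK1 (chr10:52314031-52314280, plus strand), FZD8 (chr10:35642297-35642546, minus strand), FZD4 (chr11:86955396-86955645, minus strand) and LGR4 (chr11:27472791-27473040, minus strand). Capitals mark matches to the TCF/LEF motif (CTTTG followed by 2 bases that are each A or T) or to the TATA box (TATAAA), searched on both strands.
DKK1: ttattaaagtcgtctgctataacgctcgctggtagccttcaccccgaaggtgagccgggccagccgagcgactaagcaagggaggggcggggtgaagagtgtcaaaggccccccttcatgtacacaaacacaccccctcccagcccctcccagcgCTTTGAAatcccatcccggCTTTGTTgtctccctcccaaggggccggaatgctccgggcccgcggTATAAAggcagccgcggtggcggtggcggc
FZD8: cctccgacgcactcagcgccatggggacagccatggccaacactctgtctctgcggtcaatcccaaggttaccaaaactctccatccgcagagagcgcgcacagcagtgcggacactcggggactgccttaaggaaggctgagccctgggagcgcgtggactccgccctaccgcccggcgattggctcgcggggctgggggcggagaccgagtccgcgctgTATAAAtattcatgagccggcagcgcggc
FZD4: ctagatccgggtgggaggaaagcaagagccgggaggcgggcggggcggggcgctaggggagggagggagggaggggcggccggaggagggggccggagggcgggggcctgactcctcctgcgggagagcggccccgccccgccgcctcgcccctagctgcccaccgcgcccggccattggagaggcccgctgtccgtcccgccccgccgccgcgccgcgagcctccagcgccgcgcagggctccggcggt
LGR4: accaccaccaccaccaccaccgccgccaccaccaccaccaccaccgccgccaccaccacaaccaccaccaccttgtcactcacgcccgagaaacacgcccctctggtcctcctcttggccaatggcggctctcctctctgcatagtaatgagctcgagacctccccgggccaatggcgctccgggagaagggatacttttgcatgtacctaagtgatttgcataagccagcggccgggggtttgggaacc
Of the 40 matched members, DKK1 alone had TCF/LEF matches in this window, CTTTGAA beginning 95 bases and CTTTGTT 76 bases before the start. LGR5, AXIN2, NKD1 and ZNRF3 were among the members without an entry and could not be searched. A match is held by 12.1% of the 27305 promoters searched and by 1 of the 40 members. The half-site of the androgen receptor (AGAACA) was also searched. It is held by 12.4% of all promoters and by 5 of the 40 members, none of them shown here. A TATA match lies 30 bases before the start of DKK1 and 29 bases before that of FZD8, while 11.1% of all promoters and 3 of the 40 members hold one. The upstream bases of FZD4 are 80.8% G and C, against 62.8% for DKK1, 65.2% for FZD8 and 62.0% for LGR4.

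Among 64 other genes of the pathway, 56 were tested, with 16 higher and 14 lower in the resistant cells, or 53.6% of those tested against the background of 44.4%. Their median log2 difference was −0.03. CELSR3, a cadherin of planar cell polarity, rose from 2.52 ± 0.400 to 32.5 ± 1.80 FPKM, TPBG, a membrane protein that restrains WNT signals, from 0.535 ± 0.110 to 6.98 ± 0.507 FPKM, and CXXC4, an inhibitor of dishevelled, from 0.0149 ± 0.0257 to 3.37 ± 1.68 FPKM (SD, n = 3 each). CSNK1D, a casein kinase, fell from 93.9 ± 5.49 to 45.6 ± 3.52 FPKM, FRAT2, which binds GSK3, from 18.6 ± 1.26 to 6.14 ± 0.887 FPKM, and GPC3, a surface glypican, from 5.49 ± 0.619 to 0.830 ± 0.174 FPKM (SD, n = 3 each). Their limma adjusted p values ran from 1.59e-05 to 3.23e-04, and none of the 6 overlapped between the groups. WLS, PORCN, RSPO4, NOTUM, the TLE genes and the kinases GSK3A, GSK3B and CSNK1A1 were chosen after their values were seen. GSK3A was called higher, at 7.22 ± 1.02 and 16.8 ± 0.547 FPKM (SD, n = 3 each, limma adjusted p = 6.57e-04). CSNK1A1 was called lower, at 278 ± 16.0 and 219 ± 14.7 FPKM (limma adjusted p = 0.0115), and GSK3B was not called (limma adjusted p = 0.157). WLS, the carrier that brings WNT proteins to the surface, was at 2.58, 3.12 and 4.27 FPKM in the parental and at 15.9, 22.7 and 29.3 FPKM in the resistant libraries (limma adjusted p = 4.87e-04). PORCN, which attaches the lipid that WNT proteins need, had 6.97 ± 1.22 and 4.17 ± 0.785 FPKM (SD, n = 3 each, limma adjusted p = 0.0278), and lost the call without parental replicate 1 or 2 or resistant replicate 1 or 2, with adjusted p values from 0.0761 to 0.0893. RSPO4, an R-spondin, was at 0.0197, 0 and 0 FPKM in the parental and at 1.13, 0.723 and 1.62 FPKM in the resistant libraries, while RSPO1 and RSPO2 were at 0 in every library and RSPO3 was too low to be tested. NOTUM, an enzyme that removes the lipid from WNT proteins, was at 0.0877, 0.0615 and 0 FPKM in the parental and at 2.51, 2.09 and 3.13 FPKM in the resistant libraries. Of the 5 TLE co-repressors with AES, all tested, 1 was higher, 2 were lower and 2 were not called. Among all genes tested, 44.4% were called. TLE2 was higher, at 15.3 ± 1.81 and 30.8 ± 3.85 FPKM, and TLE1 lower, at 5.49 ± 0.749 and 0.778 ± 0.290 FPKM (SD, n = 3 each). AES was also lower, at 122 ± 5.89 and 86.9 ± 10.9 FPKM, while TLE3, between 96.1 and 106 FPKM in parental and between 83.4 and 98.5 FPKM in resistant cells, and TLE4, below 1.05 FPKM in every library, were not called.

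A list of 22 textbook targets of beta-catenin and TCF, 8 of them members described above, held 20 tested genes, of which 9 were higher and 3 lower. Of the 14 targets that are not members, 12 were tested, with 5 higher and 2 lower, or 58.3% against the background of 44.4%. NOTUM, called higher, is also on the list of other pathway genes and is counted in both lists. CCND1, the cyclin of early cell cycle entry, was at 296, 257 and 268 FPKM in the parental and at 1678, 1787 and 1812 FPKM in the resistant libraries (limma adjusted p = 4.69e-06). TNFRSF19, a receptor of the tumour necrosis factor family, went the opposite way, from 84.5, 86.7 and 88.5 FPKM to 0.274, 0.165 and 0.155 FPKM (limma adjusted p = 3.06e-06). BAMBI, a decoy receptor for TGF-beta, fell from 13.1 ± 0.554 to 4.88 ± 0.554 FPKM (SD, n = 3 each, limma adjusted p = 3.31e-04). CD44 and ID2, chosen after their values were seen, rose from 0.245 ± 0.271 to 26.9 ± 5.15 FPKM and from 12.5 ± 2.24 to 113 ± 5.30 FPKM. MYC, also chosen after its values were seen, was at 194 ± 14.1 and 178 ± 15.2 FPKM, overlapped between the groups and was not called (limma adjusted p = 0.305). Among the targets that act as feedback, LGR5, DKK1, RNF43, LEF1 and NOTUM were thus higher, NKD1 was lower, and AXIN2, ZNRF3, TCF7 and SP5 were not called.

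**Figure D5:**
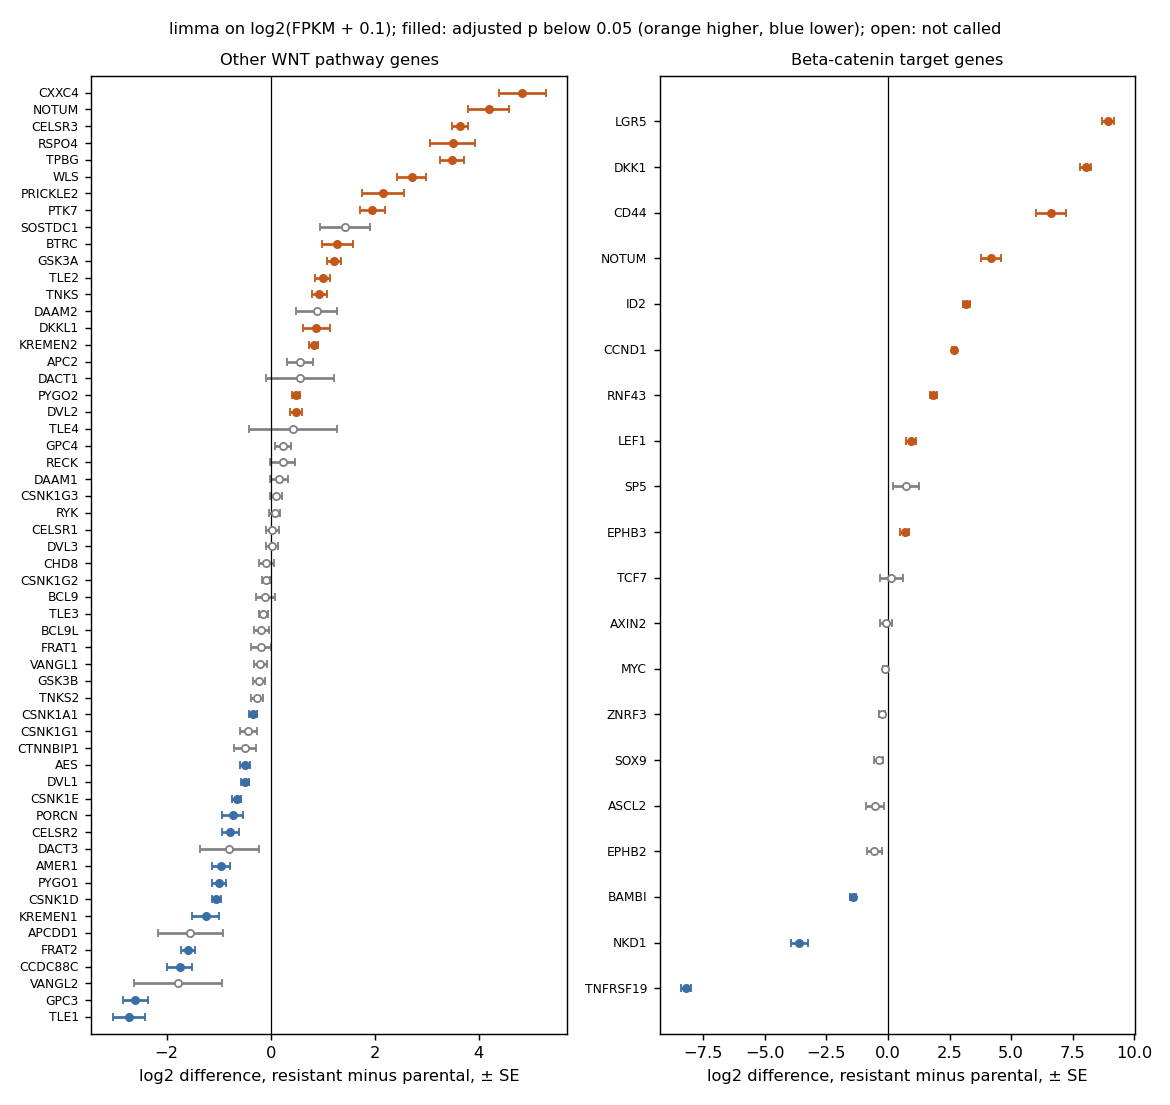
Difference between resistant and parental cells on the log2(FPKM + 0.1) scale, with standard errors, for the tested genes of the other pathway list (left, 56 genes) and of the target list (right, 20 genes), where orange is higher, blue is lower and open points did not pass an adjusted p of 0.05. Each list spreads to both sides of 0, from GPC3 and TLE1 to CXXC4 on the left panel and from TNFRSF19 to LGR5 on the right.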

How the data were processed

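RNA-Seq data of C4-2B cells were used, with 3 parental and 3 enzalutamide resistant libraries. According to the methods, reads (single-end, 50 bp) were trimmed by the authors using TrimGalore and mapped with STAR on GRCh38, Cufflinks then gave expression values on GENCODE genes, and the deposited table holds a FPKM value per gene and library. The table names no unit. The submitters' processing notes also name Trimmomatic 0.27, FastQC 0.10.1 and mm10, but the table holds human gene identifiers. No read counts were used, and depth was estimated from single-transcript genes between 600 and 8000 bases long. A 0 was read as listed at 0, without a fold change.

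The group comparison used limma 3.58.1 (R 4.3.3). Its input was log2(FPKM + 0.1) of all genes that averaged 0.1 FPKM or more, and it used a mean-variance trend, two-sided p values, Benjamini-Hochberg adjustment over all genes tested and a threshold of 0.05. Log2 differences are on this scale, which understates changes of low genes, and fold changes are ratios of mean FPKM. With 3 against 3 libraries, an exact two-sided permutation test of a single gene cannot go below p = 0.1. The members, lists and naming rule were chosen with earlier results of these data known. Values per library are given for DKK1, for members called with at least a 2-fold difference at 1 FPKM or more, and for the core genes of the pathway. Of the other lists, the 3 genes with the smallest adjusted p in each direction are named, and other genes of these lists were chosen after their values were seen. Positions are from GENCODE v44 on GRCh38. The alternatives covered the pseudocount, the filter, the scaling, the variance trend, the threshold, leaving out each library in turn and blocking on the replicate number. Python 3.11.15 with pandas 2.3.3 and numpy 2.4.6 served for the tables, and matplotlib 3.10.9 for the figures. Some genes of the marker lists are not reported here.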

Additional observations from a re-analysis of the deposited data

How the results depend on the processing

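Under the 16 alternatives, 13 of the 20 called members stayed past the threshold wherever they were tested, among them DKK1, LGR5, LGR4, RNF43, FZD4, FZD8, ROR1, WNT7B, LRP5 and NKD1. The other 7 lost the call at least once (WNT3A, WNT10A, FZD5, FZD9, DKK2, WIF1 and LEF1), and no called member turned its sign. FZD3, FZD6, CTNNB1 and TCF7L2, which were not called, passed the threshold at least once. With an adjusted p threshold of 0.01, 7 of the 42 tested members were higher, beside 3683 of all 24468 genes tested. With a pseudocount of 1 FPKM, 9 of 42 tested members were called at least 2-fold apart. With a filter at 1 FPKM, this held for 8 of 29 tested members. The share of all genes at least 2-fold apart was not taken under either of these settings. With a library left out, the members called higher ranged from 11 to 13, those called lower from 6 to 7 and those at least 2-fold apart from 14 to 15, and the calls among all genes from 9324 to 10152. The other pathway genes ranged from 14 to 17 higher and 13 to 15 lower, and the target genes from 7 to 9 higher with 3 lower.

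The deviations of libraries with the same replicate number had correlations of 0.00802, 0.0165 and −0.00301. Those with different numbers lay between −0.026 and 0.0201. These values cover all genes above the filter, noisy low ones included, and cannot exclude a pairing. The sources do not say whether the numbers pair the libraries. With the replicate block, 17 members were called, 16 of them shared with the fit without it, 9463 genes were called in all, and TCF7L2 passed the threshold (adjusted p = 0.0135).

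The log2 difference turned its sign, without a call on either side, for 8 members. Before these changes it lay between −0.34 for WNT2B and 0.14 for TCF7. Under median scaling APC was at 0.0938 and AXIN2 at 0.0137. Under quantile normalization APC was at 0.0314, WNT3 at −0.13, FZD7 at −0.0562 and TCF7 at −0.00055. Without short RNA and mitochondrial genes APC was at 0.0489. WNT3 was at −0.0049 with a pseudocount of 1 FPKM, and DKK3 at 0.0912 with 0.01 FPKM. With a library left out, the differences ran from −0.12 to 0.0746 for APC, −0.24 to 0.0645 for AXIN2, −0.19 to 0.18 for WNT3, −0.12 to 0.14 for FZD7, −0.68 to 0.79 for DKK3, −0.75 to 0.21 for WNT2B, −0.33 to 0.16 for WNT8B and −0.30 to 0.50 for TCF7. The cause was not tested. Members below 1 FPKM rest on few reads, and depth was only estimated.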
